A study of Drosophila melanogaster with 4 samples.

Results

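The genes described here code for 6 enzymes of the pentose phosphate pathway and of purine synthesis: Taldo, CG8036, Paics, Prat, Adsl and Adss. They were taken as the spots whose symbol in the probe gene table is exactly 1 of these names, which gave 6 of the 6793 genes with a symbol of their own on the array, on 16 spots. The genes were chosen with the ratios of levetiracetam over normal food on these arrays already known, so those ratios are given as a description and without a test.

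The study fed levetiracetam, a drug against epilepsy whose mammalian target is the vesicle protein SV2A, to unmated male Drosophila melanogaster of the Oregon-R wild type, and measured transcripts in their heads. Treated flies had 5 mg/ml levetiracetam in their food for 3 days after 7 days on normal food, and the flies they were compared with stayed on normal food for the same times. All flies were kept 30 to a vial, and each RNA was a pool of many heads, so no value belongs to a single fly. There were 4 spotted cDNA arrays with 2 dyes, each with 1 treated and 1 normal food pool from its own set of vials, which makes the array the replicate. The dyes were swapped, with the levetiracetam pool in Cy5 on replicates 1 and 2 but in Cy3 on replicates 3 and 4. Where an age is labelled it is 3 to 4 days, although the feeding alone ran longer. Most pools are labelled as kept for 10 to 11 days once collected, but for 2 to 3 days in the case of the levetiracetam pool of replicate 4 and the normal food pool of replicate 1.

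The pentose phosphate pathway turns glucose 6-phosphate into NADPH, the reducing power for lipid synthesis and for antioxidant enzymes, and into ribose 5-phosphate. Its oxidative branch makes the NADPH, and its non-oxidative branch, run by transketolase and transaldolase, exchanges carbon between pentoses and the sugars of glycolysis. Ribose 5-phosphate is activated to PRPP, on which the purine ring is then built step by step up to IMP, the parent of AMP and GMP. In neurons purines serve as energy carriers, as GTP for vesicle traffic, and as the signal adenosine.

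A value was present for between 29.1% and 45.6% of the 27648 spots of an array. Each feature was printed as a pair of neighbouring spots, which were averaged, and features of a gene were averaged next. The rows tested were the 3853 with a value on at least 3 arrays, of which 2259 were named genes. Every value below is a ratio on the log2 scale, levetiracetam over normal food, where 0 means no difference. Which channel is on top of the deposited ratio is not given in the sources used here. It was taken as Cy5 over Cy3, and replicates 3 and 4 were turned in sign. This is called the likely direction, on the ground that each array lists Cy5 as its channel 1. The values as deposited, with no sign turned, are given beside it, since they are the drug effect if the swap was undone before deposit. The arrays were not centred here, and the medians of the features in replicates 1 to 4 were -0.15, -0.16, 0.080 and 0.31 after turning. In a head sample, a lower ratio can come from fewer cells of a type or from less RNA per cell, and these cannot be told apart. As a check of the tissue, the neuronal gene nSyb had a value on all 4 arrays. The other 4 listed neuronal genes were not analysed here. Of the photoreceptor genes, trp had values on 2 arrays and Arr2 on 0, so these few genes do not show the tissue by themselves. Of 5 listed genes of the male reproductive tract, 4 were not analysed here and Acp36DE, a seminal protein gene, had a value of -2.85 in replicate 2 alone, so this list could not serve as a check.

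Of the 6 genes, 4 were measured on all 4 arrays and 2, Prat and Adsl, on 3. In the likely direction, Taldo and Paics were higher with levetiracetam on every array, by 1.37-fold and 1.47-fold on average. CG8036 was above 0 on 3 of 4 arrays, and Prat, Adsl and Adss took opposite signs under the 2 dye orientations. These are signs without centring of the arrays. Within their arrays, CG8036 lay above only 46.8% of the rows tested in replicate 4, and Adss above 49.7% in replicate 3. Over the whole array limma's fit called 0 of 3853 rows (0%) at adjusted p 0.05, and 100 rows (2.6%) had an unadjusted p under 0.05. No test of the 6 genes is drawn from that fit. The median of the 6 mean ratios was 0.31, against 0.027 over all rows tested, and as deposited it was -0.25, against -0.17.

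**Figure D1:**
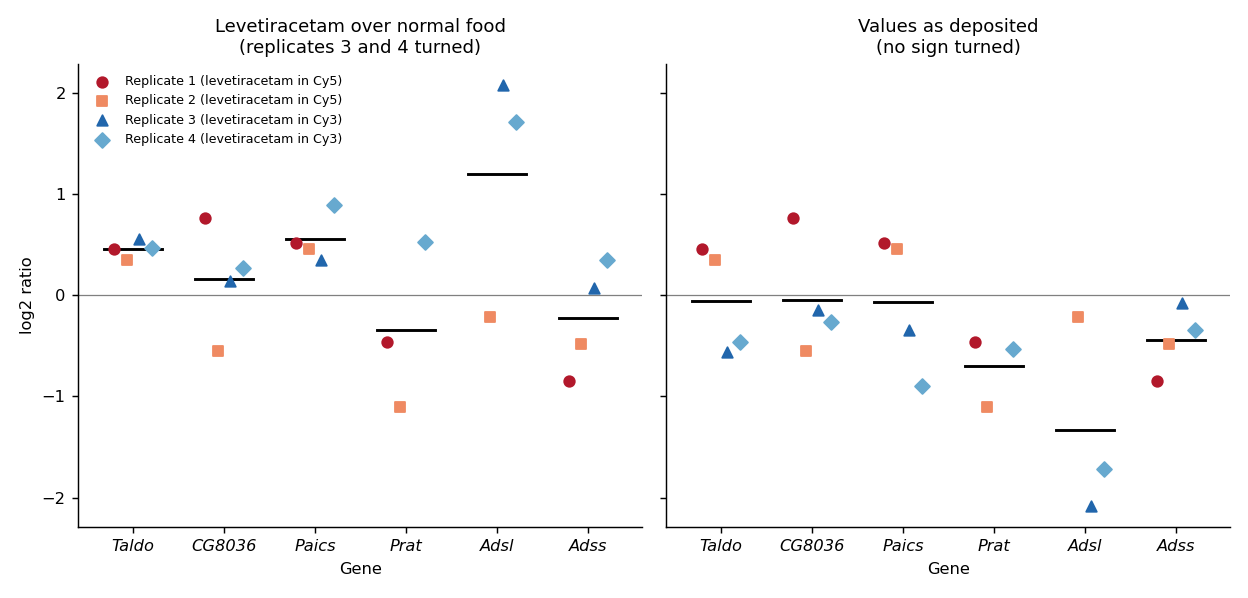
The log2 ratio of the 6 genes on each array (points, shape and colour by replicate) with the mean (black line), turned to levetiracetam over normal food on the left and as deposited on the right. Taldo and Paics stay above 0 on all 4 arrays on the left and take 2 signs on the right, while Prat, Adsl and Adss lie below 0 on every array only on the right.

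In the non-oxidative branch, Taldo (Dmel_CG2827) codes for transaldolase, which moves a carbon unit from a ketose to an aldose sugar phosphate. Its log2 ratio was 0.46 in replicate 1, 0.35 in replicate 2, 0.56 in replicate 3 and 0.46 in replicate 4. All 4 values lay within 0.21 of each other, and those with levetiracetam in Cy5 were at or just below those with it in Cy3. The mean was 0.46 ± 0.087 (SD, n = 4). For all features, the gap between the paired spots had a median of 0.26 over 19248 pairs with both values. That is a difference between single spots, a measure unlike the SD over arrays. The 2 spots of Taldo differed by 0.45 in replicate 1 and by 0.0060 in replicate 3. Ranked within each array, which takes the array's own offset out, Taldo lay above 97.4%, 91.1%, 90.4% and 69.8% of the rows tested in replicates 1 to 4. Its place was thus lowest in replicate 4, the array with the highest median. The 100 features on either side of it on the array had medians of -0.072, -0.24, 0.26 and 0.34 in replicates 1 to 4. With these local medians subtracted its mean was 0.39 ± 0.21 (SD, n = 4), and with each array centred on its median 0.44 ± 0.19. Both spreads were wider than that of the values without centring. As deposited the mean was -0.054 ± 0.53 (SD, n = 4), with 2 arrays on each side of 0.

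CG8036 (Dmel_CG8036), whose older name in the RefSeq gene table is Transk, is the transketolase that works beside transaldolase. Its ratio was 0.77 in replicate 1, -0.56 in replicate 2, 0.15 in replicate 3 and 0.27 in replicate 4. The 2 arrays with levetiracetam in Cy5 were the highest and the lowest of the 4. Ranked within each array, CG8036 lay above 99.5%, 15.4%, 59.1% and 46.8% of the rows tested in replicates 1 to 4. The mean of 0.16 ± 0.55 (SD, n = 4) was smaller than the spread. It rested on replicate 1, without which it was -0.047, and it was 0.39 without replicate 2. As deposited the mean was -0.050 ± 0.57 (SD, n = 4). Within each array, Taldo stood above CG8036 on 3 of 4, by 0.90, 0.41 and 0.20 in replicates 2, 3 and 4, and below it by -0.31 in replicate 1. That difference averaged 0.30 ± 0.50 (SD, n = 4), or -0.0043 as deposited, so these neighbouring steps did not differ beyond their spread.

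Of the oxidative branch, 0 of the 3 listed genes (Zw, Pgls and Pgd) were analysed here. Rpe, ribulose-phosphate epimerase, had a value on 1 array, at -0.050 in replicate 2. Prps, which makes PRPP from ribose 5-phosphate and so joins the 2 pathways, had ratios of 0.69, 0.025, 0.47 and 0.77 in replicates 1 to 4. All 4 were above 0, with replicate 2 lowest. Its mean of 0.49 ± 0.33 (SD, n = 4) had a limma adjusted p of 1.00, and as deposited it was -0.13. Prps stood above CG8036 on 3 of 4 arrays, by 0.33 ± 0.29 (SD, n = 4), or by -0.083 as deposited. CG13369, the other gene of its list, had a mean of -0.016 ± 0.15 (SD, n = 4) and a limma adjusted p of 1.00.

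The purine ring begins with Prat (Dmel_CG2867), the amidotransferase that commits PRPP to purines. Prat had ratios of -0.47 in replicate 1, -1.11 in replicate 2 and 0.53 in replicate 4, and no value in replicate 3. It was below 0 with levetiracetam in Cy5 and above 0 on the single array with levetiracetam in Cy3. The mean was -0.35 ± 0.82 (SD, n = 3). It was 0.032 without replicate 2, -0.29 without replicate 1 and -0.79 without replicate 4. As deposited, Prat lay below 0 on 3 of 3 arrays, with a mean of -0.70 ± 0.35 (SD, n = 3). Prat stood below Prps on 3 of 3 arrays, by -0.84 ± 0.52 (SD, n = 3), and as deposited by -0.68 ± 0.80, where it was below Prps on 2 of 3.

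Further along, Pfas, the amidotransferase that makes formylglycinamidine ribonucleotide, is no member but lies between Prat and Paics. It had ratios of 0.044, 0.66 and 0.89 in replicates 2, 3 and 4. The mean of 0.53 ± 0.44 (SD, n = 3) had a limma adjusted p of 1.00, and as deposited it was -0.50. On the 2 arrays that measured both, Pfas stood above Prat by 1.15 in replicate 2 and by 0.36 in replicate 4. Paics differed from Pfas by 0.037 ± 0.37 (SD, n = 3), which was within the spread.

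Paics (Dmel_CG3989) codes for a bifunctional enzyme that carboxylates the imidazole ring and then couples it to aspartate. Its ratio was 0.52 in replicate 1, 0.46 in replicate 2, 0.35 in replicate 3 and 0.90 in replicate 4. Every array was above 0, and the values of the 2 orientations overlapped, with replicate 4 highest. The mean was 0.55 ± 0.24 (SD, n = 4), and it lay between 0.44 without replicate 4 and 0.62 without replicate 3. Within the arrays Paics lay above 98.3%, 95.4%, 79.0% and 93.9% of the rows tested in replicates 1 to 4. Its local medians were -0.069, 0.0040, 0.037 and 0.34, and its mean with these subtracted was 0.48. As deposited the mean was -0.067 ± 0.68 (SD, n = 4). Counted with Taldo, 2 of the 6 genes were above 0 on every array with a value, as were 8.18% of all rows tested, and nothing is read from this since these ratios were known when the genes were chosen. Paics stood above Taldo on 3 of 4 arrays, by 0.098 ± 0.26 (SD, n = 4), which was within the spread. It stood above Prat on 3 of 3 arrays, by 0.98, 1.57 and 0.37 in replicates 1, 2 and 4. The mean of that difference was 0.97 ± 0.60 (SD, n = 3), and as deposited 0.73 ± 0.99, above 0 on 2 of 3.

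Adsl (Dmel_CG3590), adenylosuccinate lyase, follows Paics in the ring and also releases AMP from adenylosuccinate. It had the widest swing of the 6 genes. Its ratio was -0.21 in replicate 2, 2.08 in replicate 3 and 1.71 in replicate 4, with no value in replicate 1. Both arrays with levetiracetam in Cy3 were far above the array with it in Cy5, and the orientations did not overlap. In replicate 3 its 2 spots read 2.12 and 2.04, and in replicate 4 they read 2.07 and 1.36. The features around it had medians of only 0.26 in each of these arrays. The mean of 1.19 ± 1.23 (SD, n = 3) was the third highest of the 3853 rows, yet smaller than its own SD. Without replicate 2 it was 1.90, and without replicate 3 it was 0.75. As deposited Adsl was below 0 on 3 of 3 arrays, at a mean of -1.33 ± 0.99 (SD, n = 3), or 0.40-fold. The difference to Paics therefore changed sign with the reading. It was 0.63 ± 1.21 (SD, n = 3) in the likely direction, above 0 on 2 of 3 arrays, and -1.07 ± 0.58 as deposited, where Adsl was below Paics on all 3. In the likely direction it was 0.072 without replicate 3 and 1.28 without replicate 2.

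CG11089, named atic in older tables, carries the last steps to IMP. It had ratios of 0.73 and 0.86 in replicates 2 and 3, too few arrays for the test, and its 2 values cancelled to -0.064 as deposited. Of the 5 genes of the ring with any value, Prat was the only one with a mean below 0 in the likely direction, and as deposited all 5 means were below 0. Over all rows tested, 57.2% had a mean above 0 in the likely direction and only 20.2% as deposited, so nothing is read from these counts.

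Adss (Dmel_CG17273), adenylosuccinate synthetase, takes IMP towards AMP and hands its product to Adsl. It was the only one of the 6 genes with more than 1 feature. The gene's ratio was -0.85 in replicate 1, -0.48 in replicate 2, 0.072 in replicate 3 and 0.35 in replicate 4. Values with levetiracetam in Cy5 lay below those with it in Cy3, without overlap. Ranked within each array, Adss lay above 2.14%, 19.0%, 49.7% and 57.2% of the rows tested in replicates 1 to 4. In replicates 3 and 4 it was thus near the middle of the array. Its local medians were -0.20, -0.38, 0.034 and 0.23. The mean was -0.23 ± 0.54 (SD, n = 4), and -0.021 without replicate 1. As deposited the gene lay below 0 on all 4 arrays, at -0.44 ± 0.32 (SD, n = 4). Its 3 features had means of -0.11, -0.094 and -0.11, but they disagreed within arrays. In replicate 2 they read -0.83, -0.79 and 0.17, and in replicate 3 they read 0.49, 0.064 and -0.34. The value in replicate 1 came from the third feature alone. Adss stood below Adsl on 3 of 3 arrays, by -1.22 ± 0.88 (SD, n = 3), and above it as deposited, by 1.03 ± 1.18, on 2 of 3.

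**Figure D2:**
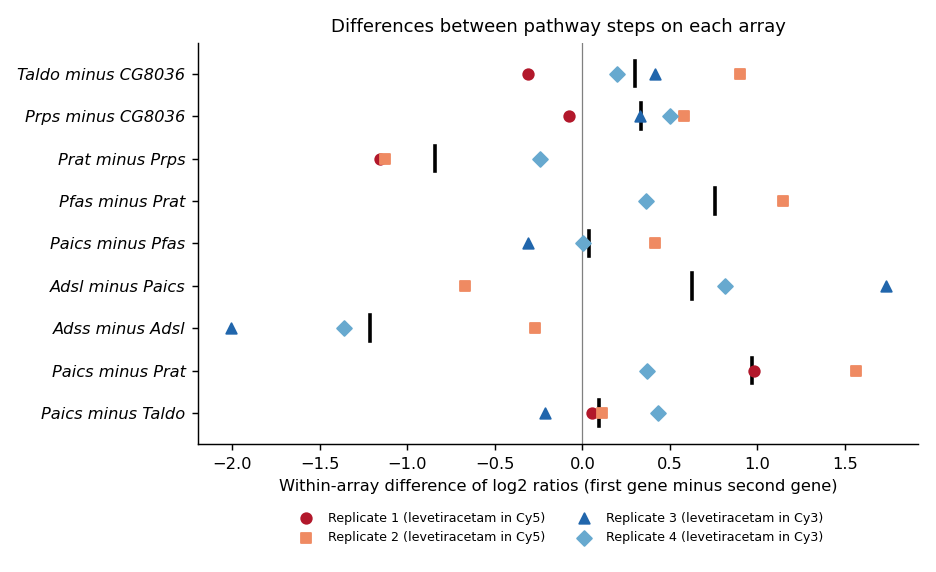
Differences between the log2 ratios of 2 genes on the same array (points by replicate, black line for the mean, first gene minus second), in the likely direction. A difference of this kind does not change when an array is centred; Prat lies below Prps and below Paics on every array that measured both, and Adsl minus Paics spreads from -0.67 to 1.73.

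The dye orientation term is the part of the ratio that turns with the dyes, coded 1 for levetiracetam in Cy5 and -1 for Cy3, and it would be the drug effect if the swap was undone before deposit. It is made from the same ratios that were known when the genes were chosen, and for a gene on all 4 arrays it equals the mean as deposited, so it too is described without a test. Adsl had the most negative term of the 6 genes at -1.05, with the Cy5 side resting on replicate 2 alone. Prat stood at -0.66, with the Cy3 side resting on replicate 4 alone, and Adss at -0.44. Taldo, CG8036 and Paics had terms of -0.054, -0.050 and -0.067. With each array centred on its median, the terms of Adsl, Prat and Adss were -0.88, -0.43 and -0.26. Those of Taldo, CG8036 and Paics turned to 0.12, 0.12 and 0.11. With the local median subtracted, Adsl, Prat and Adss had terms of -0.82, -0.49 and -0.23. Taldo, CG8036 and Paics then stood at 0.17, 0.17 and 0.044. In the fit with this term, limma called 44 of 3853 rows at adjusted p 0.05 (1.14%), 42 of them with a negative term, and 19.8% of all rows had an unadjusted p under 0.05. The call count was 0 with arrays centred, with the local median subtracted, with single spots beyond 3 on the log2 scale left out, or without replicate 3, and 173 without replicate 1. For Taldo and Paics the deposited sign turned over with the dye swap. For Prat, Adsl and Adss, 3 of the 6 genes, it was negative whichever dye held the drug. That second pattern was common, since 29.9% of all rows tested lay below 0 on every array as deposited, and 20.2% had a mean above 0 as deposited against 57.2% in the likely direction.

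**Figure D3:**
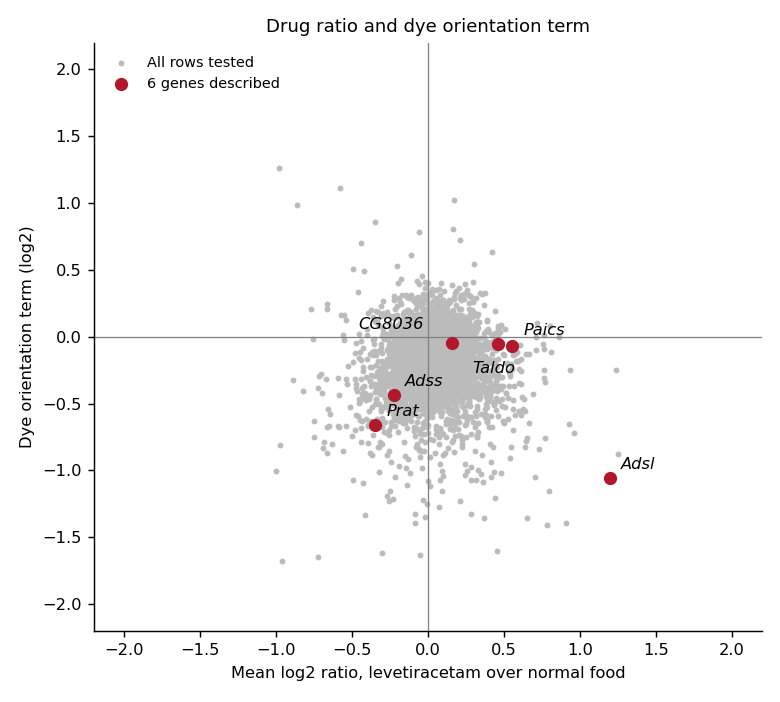
Mean log2 ratio of levetiracetam over normal food (x axis) against the dye orientation term (y axis, log2) for all 3853 rows tested (grey) and the 6 genes (red). Taldo and Paics lie at the right with a term near 0, Adsl lies apart at 1.19 and -1.05, and Prat and Adss lie at the lower left among many other rows.

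The pathways around these enzymes were described with 10 lists holding 65 genes, of which 41 had spots here and 20 could be tested, 14 of them outside the 6. These lists were chosen with earlier results of these data known, so nothing is read from how many of their genes moved. Of these 14, 0 passed adjusted p 0.05 in limma in either direction, and 3 had an unadjusted p under 0.05, against 2.6% of all rows: Prps and Pfas, given above, and Pgi, the isomerase at the branch point of glycolysis and the pentose phosphate pathway. Their means were above 0 for 7 of the 14, or for 4 as deposited. The median of the 14 was 0.0034 against 0.027 for all rows, and as deposited -0.12 against -0.17. Pgi had ratios of 0.45, 0.56, 0.28 and 0.26 in replicates 1 to 4. Its mean of 0.39 ± 0.14 (SD, n = 4) had a limma adjusted p of 1.00. As deposited its mean was 0.12 ± 0.45 (SD, n = 4), with replicates 3 and 4 below 0. The hexokinases Hex-A and Hex-C had means of -0.050 and 0.22.

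Of the other sources of NADPH, the malic enzyme gene Men-b was the only one measured, at a mean of -0.13 ± 0.37 (SD, n = 4), lowest in replicate 2 at -0.55 and highest in replicate 4 at 0.36. The thioredoxin reductases Trxr1 and Trxr2, which use NADPH, had means of -0.038 ± 0.59 and 0.034 ± 0.34 (SD, n = 4 each). Trxr1 ranged from -0.85 in replicate 2 to 0.49 in replicate 4. Among genes that supply or use 1-carbon units for the purine ring, CG3999 was the only one tested, at 0.18, 0.11, 0.34 and 0.36 in replicates 1 to 4, with a mean of 0.25 ± 0.12 (SD, n = 4) and a limma adjusted p of 1.00. The folate enzyme gene pug, measured on 2 arrays and not tested, read 0.67 in replicate 2 and 0.58 in replicate 3. CG8665 of the same list, measured on the same 2 arrays, read -0.11 in replicate 2 and 0.34 in replicate 3. The 2 tested genes of pyrimidine synthesis showed no common direction, with Ctps (CTP synthase) at 0.022 ± 0.35 (SD, n = 4) and Ts (thymidylate synthase) at -0.17 ± 0.33 (SD, n = 3). Of the same list, r-l had a value on 1 array, at -0.40 in replicate 2. For the breakdown of adenosine, Adgf-A, a secreted adenosine deaminase, had a mean of -0.41 ± 0.73 (SD, n = 3), most of it from replicate 2 at -1.23, and Adgf-E of the same family had a mean of -0.13 ± 0.16 (SD, n = 4). Those of these genes with values on at least 3 arrays were tested, and all had a limma adjusted p of 1.00.

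**Figure D4:**
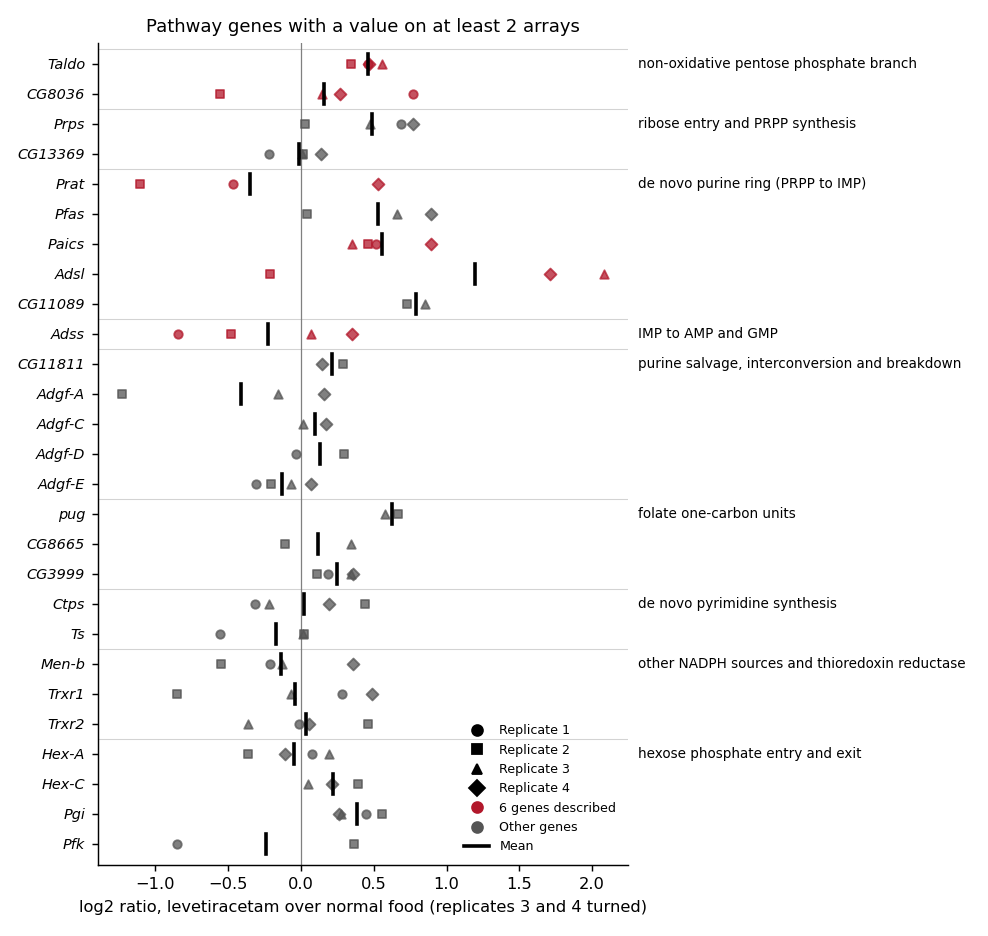
Log2 ratio of levetiracetam over normal food on each array (points, shape by replicate) and the mean (black bar) for pathway genes with a value on at least 2 arrays, grouped by list, with the 6 genes in red. All points of Taldo, Paics, Prps, Pfas, CG3999, Hex-C and Pgi lie above 0, as do those of 8.18% of all rows tested. Both points of CG11089, pug, CG11811 and Adgf-C, measured on 2 arrays and not tested, also lie above 0. The points of CG8036, Prat, Adsl and Adss lie on both sides of 0.

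Markers of cell types in the head were set beside these values. Of 33 marker genes, 9 could be tested, and 0 passed adjusted p 0.05 in limma, with 1, the haemocyte gene NimC1 at -0.59 on 3 arrays, at an unadjusted p under 0.05. Of the fat body, the fly's store of fat and glycogen, Lsp2, FASN1 and apolpp had means of 0.050, -0.035 and -0.33. The median of these 3 genes over replicates 1 to 4 was 0.13, -0.60, 0.020 and 0.24, lowest in replicate 2. The neuronal gene nSyb was also lowest in replicate 2, at -0.70, as were Taldo, CG8036, Prat and Adsl among the 6 genes. The arrays were not centred, and replicate 2 had the lowest median of features, at -0.16. Ranked within arrays, CG8036, Prat and Adsl were still lowest in replicate 2, but Taldo was lowest in replicate 4. Adsl had no value in replicate 1. The median of the glial genes moody and Gs2 was lowest in replicate 1, at -0.51, as was Adss, and Paics was lowest in replicate 3. Also lowest in replicate 1 were the median of the muscle genes Mlc2 and Act88F, at -0.0575, and NimC1, at -0.84. The fat body gene apolpp was lowest there too, at -0.65, unlike the median of its list. The lowest array thus did not separate the cell types. The part of cell type makeup in the ratios of the 6 genes was not tested.

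The genes most like Taldo and Paics were sought by the root mean square difference of the 4 log2 ratios, over 1631 other genes with values on all 4 arrays. Nearest to Taldo was CG9360 at 0.10, followed by eIF3g1, a subunit of a translation initiation factor, at 0.15. CG2233 stood at 0.15, Lst, which codes for the peptide hormone limostatin, at 0.15, and pst at 0.17. Nearest to Paics was Miox, a myo-inositol oxygenase, at 0.13, followed by Cyt-b5-r at 0.15, Lst at 0.16, CG7065 at 0.16 and the cytochrome P450 gene Cyp28d1 at 0.16. Taldo and Paics differed from each other by 0.25, which put Paics at place 32 from Taldo and Taldo at place 13 from Paics.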

How the data were processed

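Two-colour cDNA arrays measured levetiracetam against normal food in 4 replicates. The authors quantified slides in GenePix Pro and normalized each array by ratio in Acuity, per the series' design text, and kept spots that passed their filters on saturation, flags and signal to noise. The deposited file holds 1 log2 ratio per spot and array; no source states the log base, which was taken from the largest value, 16.61, the log2 of a round ratio. Intensities were not used here, so signal over background is unknown and precision is limited by 4 arrays.

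Neighbouring spots were averaged, then features of a gene. Names came from the platform's probe table; all 6 genes matched the RefSeq table of the Release 6 assembly by gene ID. Rows without exactly 1 symbol stayed single features. The test was limma 3.58.1 (R 4.3.3; lmFit and eBayes) of the mean against 0, two-sided, over all rows with a value on at least 3 arrays, with Benjamini-Hochberg adjustment at 0.05; a fit with dye orientation gave that term. The fit was also run on simulated rows with shifts of known size. These held no array offsets and no dye effects, so that run says nothing about either. For each list up to 4 genes with the smallest p were named, and the 5 genes nearest to Taldo and to Paics. The members and lists were chosen with earlier results of these data known. Each array already pairs a treated with a normal food pool. Alternatives were the sign as deposited, centring, a local median over 100 features on each side, presence on 2 or 4 arrays, both spots required, spots beyond 3 left out, features in place of genes, dye orientation as a term, and each array left out. No sequences are given.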

Additional observations from a re-analysis of the deposited data

Results flagged for a closer look

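Among the named genes with values on all 4 arrays, 1 of 23 sets held an array far from the others, and chance alone marks about 1 in 20. Lst, near to both Taldo and Paics, read 0.66 in replicate 4 against 0.32 to 0.36 on the other arrays.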

How the results depend on the processing

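Taldo and Paics kept a mean above 0 under each alternative in which they were measured except the values as deposited, where they stood at -0.054 and -0.067. Adsl moved most, to -1.33 as deposited, and with it the steps Adsl minus Paics (-1.07) and Adss minus Adsl (1.03); Prps minus CG8036 moved to -0.083. With an array left out, Taldo lay between 0.42 and 0.49, Paics between 0.44 and 0.62, CG8036 between -0.047 and 0.39, Prat between -0.79 and 0.032, Adsl between 0.75 and 1.90 and Adss between -0.42 and -0.021. Of all rows, 1 passed adjusted p 0.05 in limma with the local median subtracted and 1 with dye orientation as a term, dpr16 in both, named after its value was seen. Rows at an unadjusted p under 0.05 numbered 100 (74 higher, 26 lower with levetiracetam), 739 as deposited (16 and 723), 168 with arrays centred (106 and 62), 204 with the local median subtracted (126 and 78), and 248 with dye orientation as a term (168 and 80). With an array left out they numbered between 106 and 191, and the balance turned: 88 higher and 23 lower without replicate 1, 160 and 23 without replicate 2, 50 and 56 without replicate 3, and 46 and 145 without replicate 4. The orientation term passed for 44 rows, for 0 with arrays centred, with the local median subtracted or with extreme spots left out, for 21 with presence on 4 arrays, and for between 0 (without replicate 3) and 173 (without replicate 1) with an array left out, where 1 orientation rests on a lone array; it was 4 without replicate 4. The causes were not tested. Each array is already a pair of a treated and a normal food pool, so its ratio uses the pairing and no further pairing was made. With 4 arrays, and no intensities used, the signal behind each ratio is unknown.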
